A study of Mus musculus with 9 samples.

Results

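The genes described here encode the enzymes that add or remove methyl and acetyl groups on histone lysines, together with the DNA methyltransferases and the Tet enzymes that act on DNA. They were taken by gene symbol from the table of transcription levels: the lysine demethylases (Kdm), the methyltransferases of the Kmt, Setd, Ehmt, Suv39h and Nsd series, the Prdm proteins, the deacetylases (Hdac), the sirtuins (Sirt), the acetyltransferases (Kat, Crebbp and Ep300), Dnmt and Tet. On chromosomes 1 to 19 this gave 85 of the 24505 genes in the table. There were 15 demethylases, 23 SET methyltransferases, 14 Prdm proteins, 9 deacetylases, 7 sirtuins, 9 acetyltransferases, 5 DNA methyltransferase genes and 3 Tet genes. A further 6 matches on the sex chromosomes were left out by the rule. Symbols alone chose the genes, so the set also holds Prdm proteins with no shown enzymatic activity, the antisense transcript Dnmt3aos, and Setdb2-phf11c, a read-through locus that shares reads with Setdb2.

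The cultures were organoids, also called mini-guts, grown from mouse duodenum. Nascent RNA was measured by GRO-seq, which sequences RNA that engaged polymerase extends in isolated nuclei, in 2 libraries each of 3 cultures. The RANKL culture is labelled as intestinal M cell, which takes up antigen from the gut lumen, and RANKL is the cytokine that drives M cell formation. The ENRI culture is labelled as enterocyte and the WENRC culture as intestinal stem cell, and the labels leave these abbreviations unexplained. ChIP-seq of H3K27me3, the repressive histone mark written by Polycomb repressive complex PRC2, covered 2 RANKL libraries, which the authors pooled, and 1 WENRC library. Titles name mouse 1 and mouse 2 for ENRI and for WENRC, and the table's ENRI and WENRC columns were matched to these mice by their number. In the table's header the source folders of ENRI 1 and WENRC 1 carry the same number, and those of ENRI 2 and WENRC 2 another. The RANKL libraries carry a replicate number only. Genotype, strain, age and sex of the mice are not given in the sources used here. Since nothing says that the RANKL libraries came from separate animals, their spread may be technical.

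Methylation of histone lysines marks chromatin in opposite ways depending on the lysine. Enzymes of the Kmt2 (MLL) family methylate H3K4 at promoters and enhancers, Suv39h2, Setdb1 and the Ehmt enzymes methylate H3K9 in silent chromatin, and Kmt5b and Kmt5c methylate H4K20. Kdm enzymes reverse these marks, and acetyltransferases and deacetylases set the level of lysine acetylation, which accompanies active transcription. In the intestinal epithelium, all differentiated cells descend from crypt stem cells, and chromatin enzymes of these families help to keep or change cell identity as they do so.

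Levels are the log2 values as the authors normalized them, and the 2 values given for a culture are those of its library 1 and library 2. A change is the first-named culture minus the second on that scale. Of the 85 genes, 82 passed the filter on low values and were tested with limma; Prdm8, Prdm13 and Prdm14 did not pass. A gene is called changed where its adjusted p over all 16563 genes tested (FDR) was under 0.05. Replicates were closest in RANKL, where the SD over genes of the difference between libraries was 0.220, against 0.421 in WENRC and 0.699 in ENRI. M cell markers fixed for this work were called higher in RANKL than in ENRI for 8 of 8 genes and than in WENRC for 7 of 8, and all 5 stem markers were called higher in WENRC than in ENRI. Markers of other epithelial cells moved with the RANKL culture too: 2 of 4 Paneth, 1 of 3 tuft, 1 of 3 enteroendocrine and 1 of 4 goblet markers, and also 3 of 5 stem markers, were called higher in RANKL than in ENRI. Against WENRC, 2 of 4 Paneth, 2 of 4 goblet, 1 of 3 tuft and 1 of 3 enteroendocrine markers were called higher in RANKL, and 1 of 5 stem markers lower. Of the 6 enterocyte markers, 3 were called lower in RANKL than in ENRI, 3 higher in RANKL than in WENRC, and 6 lower in WENRC than in ENRI. None of the 4 fibroblast markers passed the filter, and of the 4 immune markers 2 passed and neither was called in RANKL against ENRI or WENRC. What part the mix of cells had in the results below was not tested, and in such bulk libraries more cells of a type and more RNA per cell cannot be told apart. The table's header names the RANKL libraries from another source folder than the other 4, and whatever differed between these sets of libraries cannot be told apart from an effect of RANKL.

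More of these enzymes were transcribed at a higher level in RANKL than at a lower one. Against ENRI, 19 of 82 were called higher and 2 lower in RANKL, where 10.4% of all genes tested were called higher and 10.5% lower. Their median change was 0.29, against -0.00 over all genes tested, and the change was above 0 for 60 of the 82. Against WENRC, 15 were called higher and 1 lower, where the shares over all genes were 8.53% and 3.62%. The median change was 0.25, against -0.01 over all genes, and 63 of the 82 were above 0. Between WENRC and ENRI few differed: 3 were called higher and 2 lower in WENRC, with 4.85% and 9.74% over all genes, and the median change was 0.03. Both RANKL comparisons share the RANKL libraries. In RANKL against ENRI, 28 of the 82 had an unadjusted limma p under 0.05, and 6061 of all 16563 genes tested did. In RANKL against WENRC it was 29 of the 82 and 4858 of all genes. In WENRC against ENRI it was 14 of the 82 and 5385 of all genes. In all, 27 genes were called in at least 1 comparison and 55 in none.

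The counts moved with the libraries used. When limma was given only the 4 libraries compared, RANKL against ENRI gave 9 higher and 2 lower (5.61% and 6.01% over all genes), and RANKL against WENRC gave 30 higher and 2 lower (18.1% and 13.2%). In the authors' deposited table the same 2 comparisons had 17 higher and 2 lower (8.55% and 11.0%), and 30 higher and 2 lower (16.7% and 11.1%). Another fit had the mouse of the ENRI and WENRC libraries as a block and left the RANKL libraries unpaired. It gave 23 higher and 2 lower in RANKL against ENRI (14.8% and 13.9%). Against WENRC it gave 18 higher and 1 lower (11.6% and 6.14%), and for WENRC against ENRI 5 higher and 4 lower (8.72% and 12.7%). Leaving out either RANKL library ended all or nearly all calls against ENRI and every call against WENRC. The median change of the members against ENRI was then 0.28 without RANKL 1 and 0.25 without RANKL 2. Over all genes tested it was -0.01 and 0.0. Against WENRC the members had 0.33 and 0.26, and all genes -0.01 and -0.0. Judged without a test, both RANKL libraries lay above both ENRI libraries for 45 of the 82 genes and below for 11 (32.4% and 32.3% over all genes), and above both WENRC libraries for 47 and below for 12 (34.1% and 34.5%). Both WENRC libraries lay above both ENRI libraries for 23 genes and below for 21 (29.3% and 29.2%).

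Single calls differed in how far they held under the 9 alternatives that left out no library. Against ENRI, Dnmt3a, Hdac1, Kdm2a, Kdm2b, Kdm4b, Kdm7a, Kmt2a, Kmt2b, Setdb2 with its read-through locus, and Sirt7 were called under each. Against WENRC, Kdm2b and Hdac5 were. The other calls in these comparisons were lost under at least 1 of them, most often with only the 4 libraries compared (against ENRI), or without the variance trend or with quantile normalization (against WENRC).

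**Figure D1:**
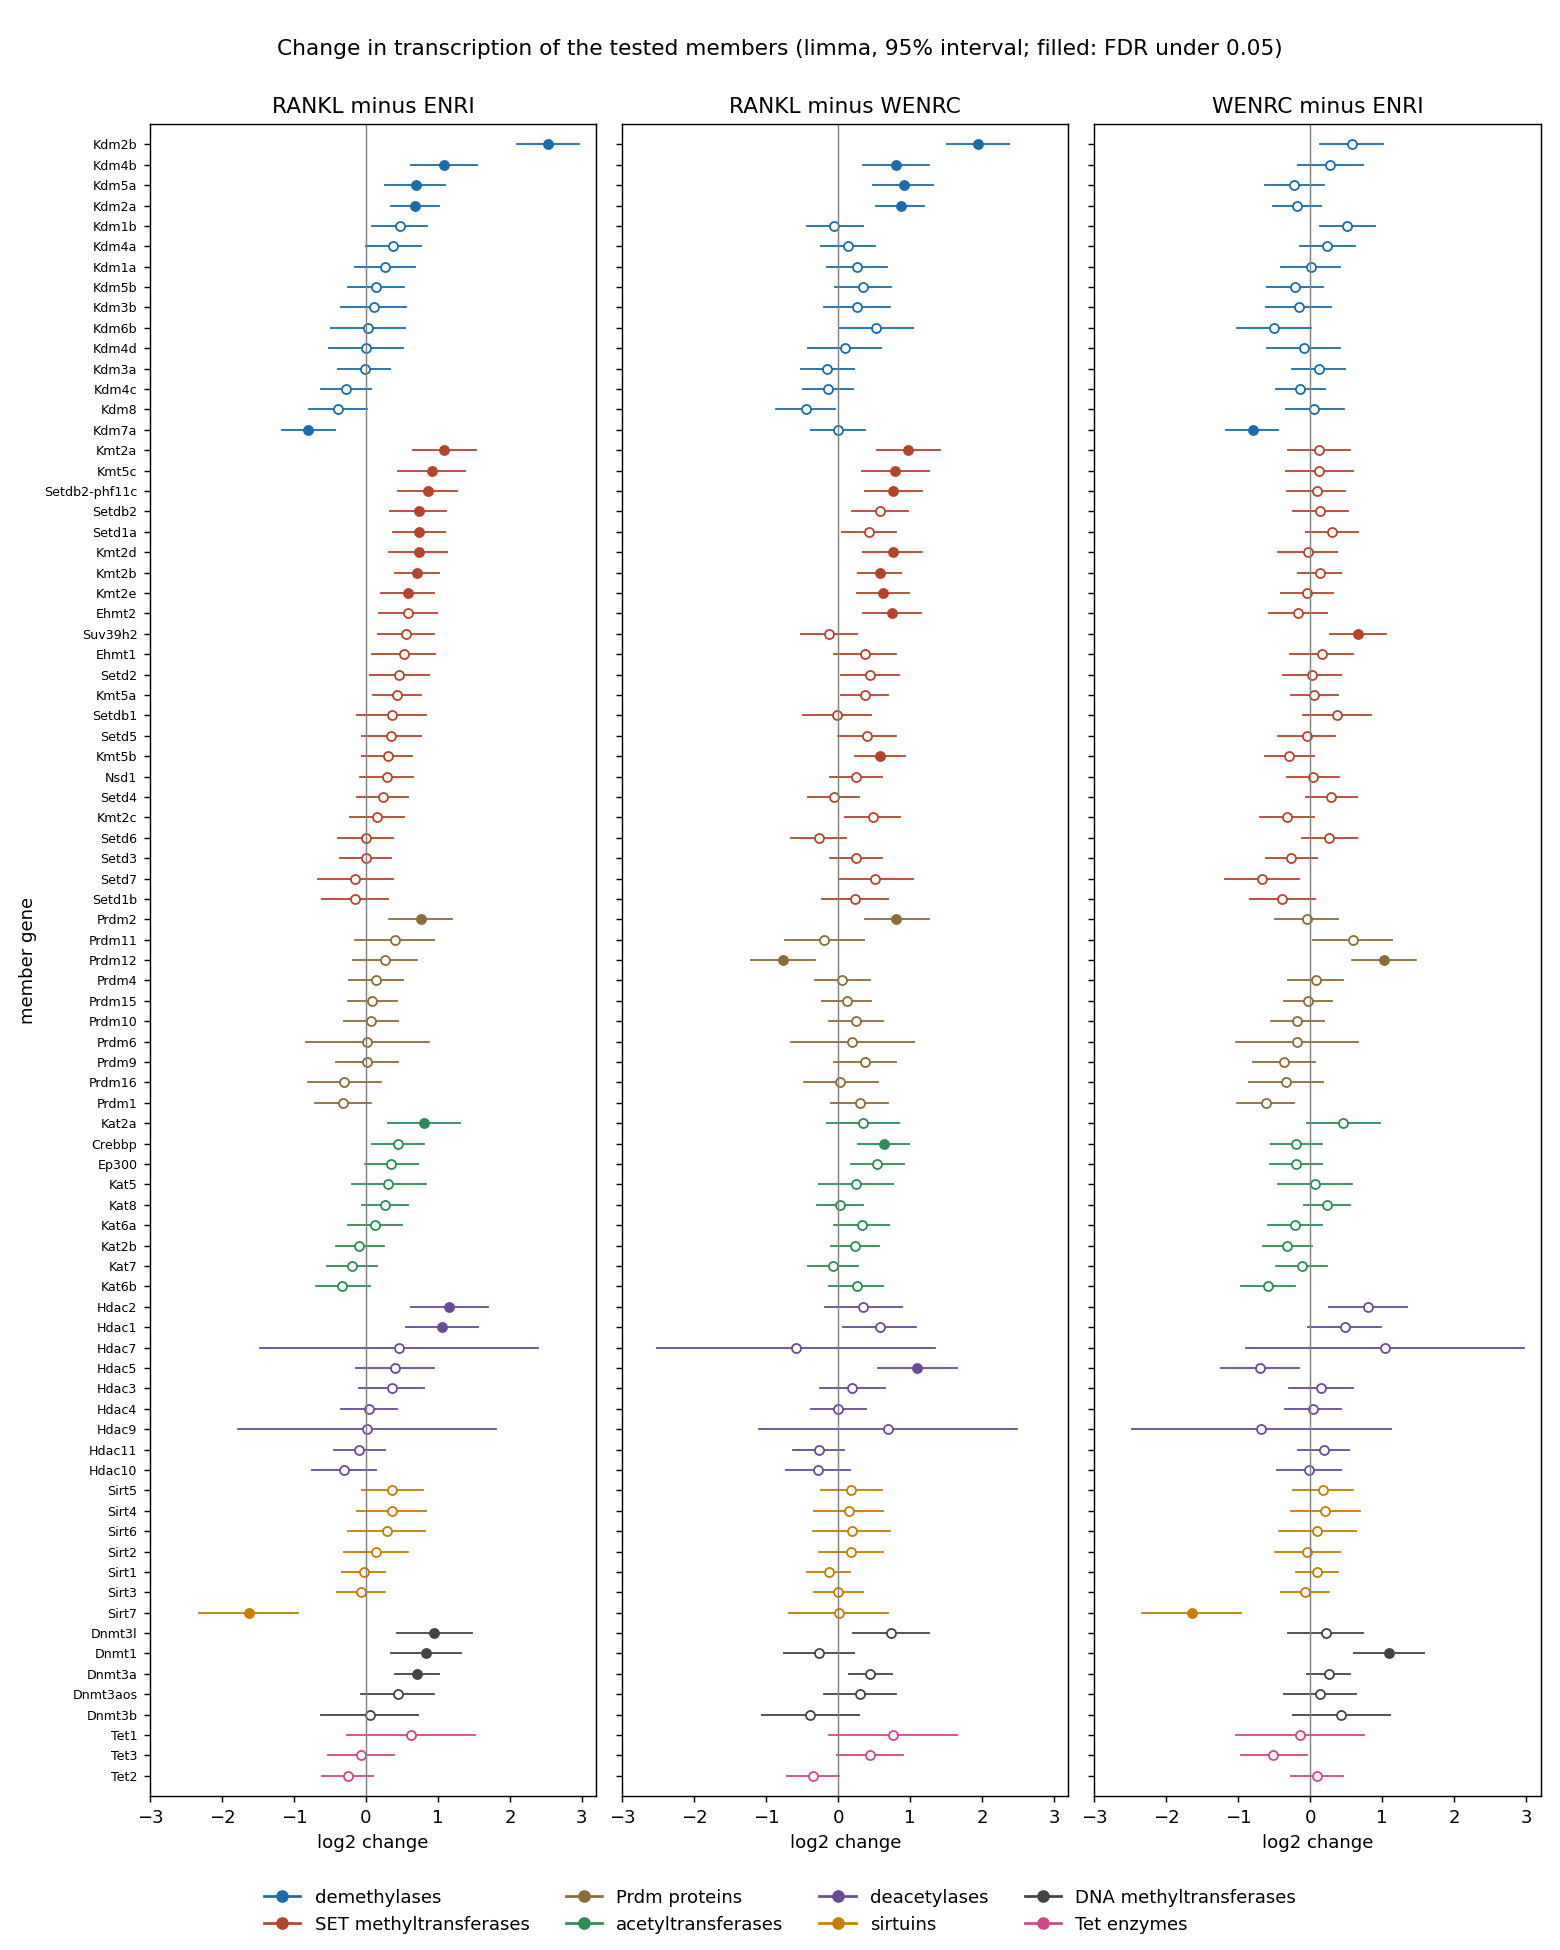
Log2 change of the tested genes, 1 of them not shown, in the 3 comparisons (x axis), with genes on the y axis grouped by family and ordered by the change from ENRI to RANKL; points are limma estimates, lines their 95% intervals, and filled points had an FDR under 0.05. Filled points lie mostly to the right of 0 in both RANKL comparisons, led by Kdm2b, whereas Sirt7 and Kdm7a lie to the left wherever ENRI is the second culture.

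Among the demethylases, Kdm2b stood far above the rest in RANKL. Kdm2b is an H3K36 demethylase whose CXXC domain binds unmethylated CpG and which brings a variant Polycomb complex, PRC1.1, to CpG islands. Its gene (NM_001003953, mm9 chr5:123320681-123439108, minus strand) had values of 11.44 and 11.56 in RANKL, 9.19 and 8.76 in ENRI, and 9.59 and 9.51 in WENRC. Both RANKL libraries were well above all 4 others. The change was 2.53 against ENRI (5.76-fold, SE 0.18, limma FDR 0.00197) and 1.95 against WENRC (3.87-fold, SE 0.18, limma FDR 0.00355), each the largest rise among the members. Between WENRC and ENRI it was 0.58 (limma FDR 0.0802). Kdm2b kept its call in both RANKL comparisons under each of the 9 alternatives that left out no library. In each of these comparisons, not every fit that left out a library called it. Over all alternatives its change stayed between 2.31 and 2.87 against ENRI and between 1.69 and 2.21 against WENRC.

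Kdm2b is shown with its sequence because one of the deposited H3K27me3 regions lies at one of its starts. RefSeq lists 4 promoter windows for the gene on GRCm38.p6, each from 250 bases before to 50 bases after a start, and the outermost windows are 88.7 kb apart. The 2 inner windows overlap and the 2 outer ones do not. The outer window (chr5:122989050-122989349, minus strand) holds 28 CpG dinucleotides and the innermost one (chr5:122900301-122900600, minus strand) 49. They are written 5′ to 3′ with CpG in capitals, these being the dinucleotides to which the CXXC domain of Kdm2b itself binds.
Kdm2b outer start: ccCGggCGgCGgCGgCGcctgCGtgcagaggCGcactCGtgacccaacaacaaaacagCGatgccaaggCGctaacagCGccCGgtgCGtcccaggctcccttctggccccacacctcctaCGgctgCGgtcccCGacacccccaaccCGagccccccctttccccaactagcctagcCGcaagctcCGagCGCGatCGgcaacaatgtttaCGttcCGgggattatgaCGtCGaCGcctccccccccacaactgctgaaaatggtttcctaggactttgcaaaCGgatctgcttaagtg
Kdm2b innermost start: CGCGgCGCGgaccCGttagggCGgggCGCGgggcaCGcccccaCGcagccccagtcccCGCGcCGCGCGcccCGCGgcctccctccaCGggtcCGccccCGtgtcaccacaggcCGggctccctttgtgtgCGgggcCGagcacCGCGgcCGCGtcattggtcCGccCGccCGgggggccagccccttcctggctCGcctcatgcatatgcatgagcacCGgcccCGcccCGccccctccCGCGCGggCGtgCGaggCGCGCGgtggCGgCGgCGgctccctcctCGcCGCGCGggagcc

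The H3K27me3 region at Kdm2b was higher in WENRC. In mm9 it spans chr5:123350910-123351536, inside the gene, and the authors annotated it as a promoter, with its centre 864 bases upstream of the start of the shorter transcript NM_013910. WENRC had 28.8 tags there after the authors' scaling and pooled RANKL 11, a fold of 2.62 by the authors. At this internal start the mark was lower in the culture in which the gene was transcribed more. These tag values have no replicate check, and GRO-seq reads were summed over the whole gene, so the starts were not measured apart.

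Of the other demethylases, Kdm2a, Kdm4b and Kdm5a were called higher in RANKL in both comparisons. Kdm2a, the paralogue of Kdm2b that also binds CpG islands and demethylates H3K36, had 12.10 and 12.04 in RANKL, 11.38 and 11.39 in ENRI, and 11.27 and 11.13 in WENRC. The RANKL libraries were the highest pair, with changes of 0.68 (limma FDR 0.0215) and 0.87 (limma FDR 0.0151). Kdm4b, a demethylase of methylated H3K9, had 10.77 and 10.85 in RANKL, 9.79 and 9.65 in ENRI, and 10.24 and 9.77 in WENRC. RANKL again stood above all 4 others, while WENRC 2 lay within the ENRI range, and the changes from ENRI and WENRC to RANKL were 1.09 (limma FDR 0.0142) and 0.81 (limma FDR 0.0443). Kdm5a, which removes methyl groups from H3K4, had 11.75 in each RANKL library, 11.24 and 10.89 in ENRI, and 10.93 and 10.76 in WENRC. Its changes were 0.69 (limma FDR 0.0376) and 0.91 (limma FDR 0.0244), and it overlaps Ccdc77, so reads of these genes may be mixed.

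Kdm7a, which demethylates H3K9 and H3K27, was called lower in both RANKL and WENRC than in ENRI. It had 10.23 and 10.31 in RANKL, 11.12 and 11.03 in ENRI, and 10.41 and 10.13 in WENRC. The ENRI libraries stood above the other 4, with a change of -0.80 for RANKL against ENRI (limma FDR 0.0180) and -0.80 for WENRC against ENRI (limma FDR 0.0245). RANKL and WENRC overlapped, with a difference of 0.00 and a 95% interval of -0.37 to 0.37. The noncoding gene 4930599N23Rik overlaps it.

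Kdm6b, the H3K27 demethylase also known as Jmjd3, was the member with the highest level per kb of gene, 6.68 as a mean of the 6 libraries on the log2 scale. Its values were 10.69 and 10.89 in RANKL, 10.48 and 11.04 in ENRI, and 10.24 and 10.28 in WENRC. RANKL lay inside the ENRI range and above WENRC. The change from ENRI was 0.03 (95% interval -0.48 to 0.54, limma FDR 0.923). Against WENRC it was 0.53 (interval 0.02 to 1.04), which did not pass with all 6 libraries in the fit (limma FDR 0.157) but did with only the 4 libraries compared (limma FDR 0.012) and in the authors' deposited table (adjusted p 0.000949). WENRC against ENRI gave -0.50 (limma FDR 0.162). The remaining demethylases without a call against ENRI ranged from -0.39 to 0.47, and Kdm3a, an H3K9 demethylase with the second highest level per kb of its family (5.45), changed by -0.02 against ENRI and by -0.15 against WENRC (limma FDR 0.922 and 0.574).

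**Figure D2:**
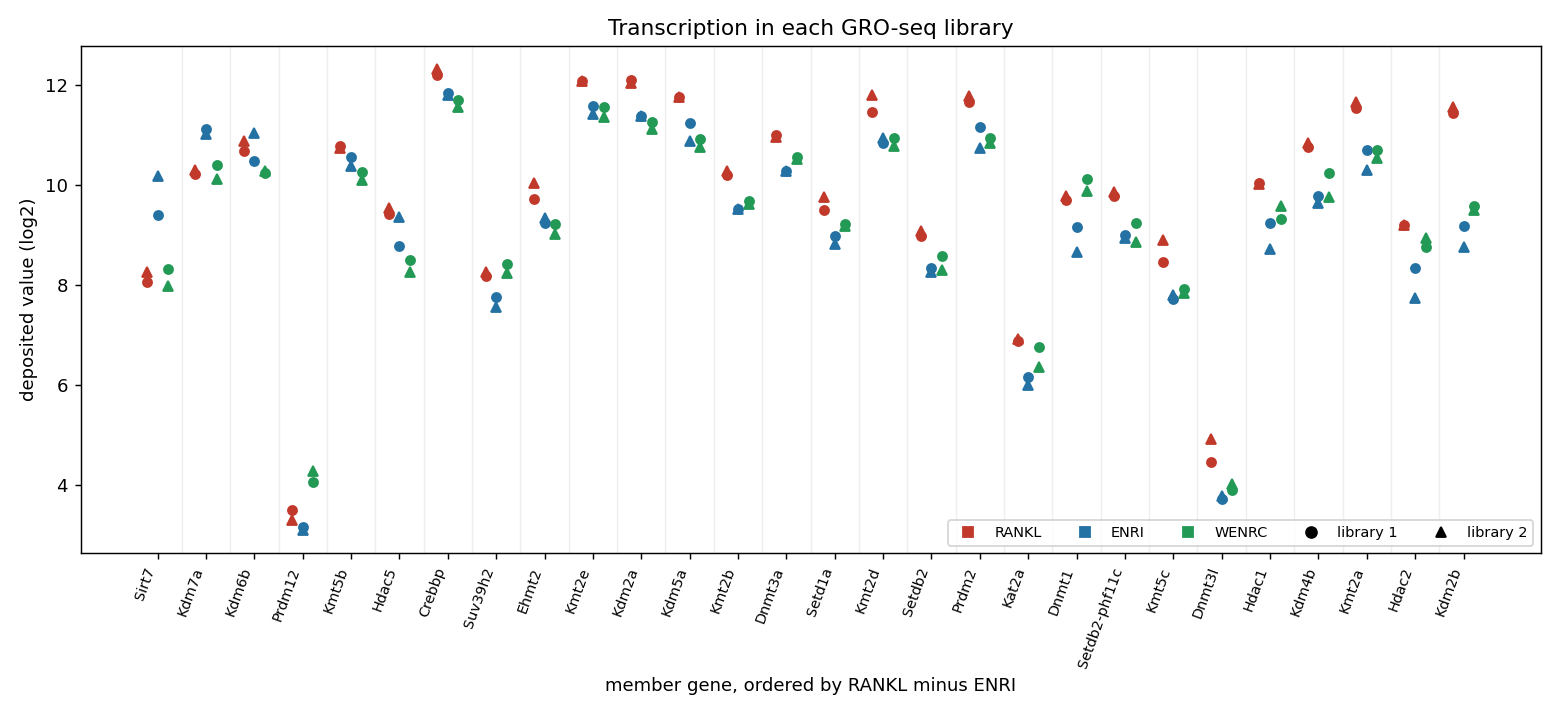
Deposited log2 value (y axis) in each of the 6 GRO-seq libraries for Kdm6b and the 27 genes called in at least 1 comparison. Genes are ordered on the x axis by the change from ENRI to RANKL. Colour is the culture, and circles are library 1 and triangles library 2. ENRI and WENRC symbols of one shape share a mouse by title and number, and no mouse is named for RANKL. The paired RANKL points of Kdm2b, at 11.44 and 11.56, stand clear of all others for that gene, and the ENRI points of Sirt7, at 9.41 and 10.19, do so in the other direction.

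The SET methyltransferases, the largest family, held the most calls. In RANKL 8 of 23 were called higher than in ENRI and 8 of 23 higher than in WENRC. The shares over all genes tested were 10.4% and 8.53%. None was called lower in either, where 10.5% and 3.62% of all genes were. Calls gathered in the Kmt2 family, in which Kmt2a, Kmt2b, Kmt2d and Kmt2e, but not Kmt2c, were called in both comparisons. Kmt2a, also known as MLL1, is an H3K4 methyltransferase with a CXXC domain. It had 11.54 and 11.65 in RANKL, 10.71 and 10.30 in ENRI, and 10.70 and 10.55 in WENRC. The RANKL libraries were above the rest by more than the replicates differed, with changes of 1.09 (SE 0.18, limma FDR 0.0126) and 0.97 (SE 0.18, limma FDR 0.0231). Kmt2b, its closest relative, had 10.20 and 10.28 in RANKL, 9.53 in both ENRI libraries, and 9.69 and 9.63 in WENRC. All 3 pairs were tight, and the changes were 0.71 (limma FDR 0.0145) and 0.58 (limma FDR 0.0341).

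Kmt2d, an enhancer H3K4 monomethyltransferase and one of the most transcribed members of its family per kb (5.83), had 11.46 and 11.80 in RANKL, 10.85 and 10.95 in ENRI, and 10.95 and 10.79 in WENRC. Its changes were 0.73 (limma FDR 0.0310) and 0.76 (limma FDR 0.0383). Kmt2c, the other enhancer enzyme, had 12.03 and 12.06 in RANKL, 11.89 in both ENRI libraries, and 11.70 and 11.43 in WENRC. It was highest in RANKL as well, but with all 6 libraries in the fit its changes did not pass. They were 0.15 (95% interval -0.22 to 0.53, limma FDR 0.521) and 0.48 (0.10 to 0.86, limma FDR 0.103). Against WENRC, Kmt2c was called with only the 4 libraries compared, with library weights and in the authors' deposited table (adjusted p 0.00119). Whether Kmt2c differed from Kmt2d in its change was not tested. Kmt2e, an MLL relative with little or no methyltransferase activity, had 12.08 in each RANKL library, 11.58 and 11.43 in ENRI, and 11.55 and 11.36 in WENRC. Its changes were 0.58 (limma FDR 0.0425) and 0.62 (limma FDR 0.0482), and it overlaps Srpk2. The calls were kept in 4 of 9 alternatives against ENRI (authors' deposited table, adjusted p 0.0546) and in 6 of 9 against WENRC. Setd1a is the catalytic subunit of another H3K4 methyltransferase complex. It had 9.51 and 9.76 in RANKL, 8.98 and 8.82 in ENRI, and 9.23 and 9.18 in WENRC. With all 6 libraries in the fit it was called against ENRI alone, at 0.73 (limma FDR 0.0225). Against WENRC it was called with only the 4 libraries compared, with library weights and in the authors' deposited table (adjusted p 0.0454).

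The Kmt2a promoter window of RefSeq (GRCm38.p6 chr9:44881240-44881539, minus strand, 36 CpG in capitals) is printed because Kmt2a both rose in RANKL and has a deposited H3K27me3 region near its start. That region, centred 1583 bases upstream of a start in mm9, had 24 tags in pooled RANKL and 7.2 scaled tags in WENRC, a fold of 3.33 by the authors. At Kmt2a the mark and transcription were thus both higher in RANKL, the opposite arrangement to that at the internal start of Kdm2b.
Kmt2a: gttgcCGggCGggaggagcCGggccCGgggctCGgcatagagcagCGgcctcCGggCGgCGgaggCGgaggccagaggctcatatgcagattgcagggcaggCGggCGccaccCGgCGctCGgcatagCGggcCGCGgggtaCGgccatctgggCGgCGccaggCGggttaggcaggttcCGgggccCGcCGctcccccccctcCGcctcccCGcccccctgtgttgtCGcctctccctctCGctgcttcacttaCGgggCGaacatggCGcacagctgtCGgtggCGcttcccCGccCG

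Some enzymes of silent chromatin were also among the calls. Kmt5c, which writes H4K20 trimethylation, had 8.46 and 8.90 in RANKL, 7.72 and 7.80 in ENRI, and 7.93 and 7.84 in WENRC, with changes of 0.92 (limma FDR 0.0234) and 0.79 (limma FDR 0.0486). Its relative Kmt5b was called against WENRC alone, at 0.58 (limma FDR 0.0493), with 10.78 and 10.75 in RANKL and 10.27 and 10.10 in WENRC. Ehmt2, or G9a, an H3K9 methyltransferase, had 9.72 and 10.04 in RANKL, 9.25 and 9.35 in ENRI, and 9.22 and 9.03 in WENRC. RANKL was highest in each case, but Ehmt2 was called only against WENRC (0.75, limma FDR 0.0372, and 0.58 against ENRI, limma FDR 0.0545). With all 6 libraries in the fit, Ehmt1 was not called against ENRI or WENRC (0.53 and 0.37, limma FDR 0.0863 and 0.232). The authors' deposited table had Ehmt1 higher against WENRC (adjusted p 0.0127). Setdb1 was not called either (0.36 and -0.01, limma FDR 0.239 and 0.971). Setdb2, an H3K9 methyltransferase of the Setdb family, was called against ENRI (0.73, limma FDR 0.0262). Its read-through locus with Phf11c was called in both comparisons (0.86 and 0.77, limma FDR 0.0193 and 0.0362). They share reads and are not 2 independent observations, although the counts of calls given here hold both.

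Suv39h2, which trimethylates H3K9 in heterochromatin, had another order. It had 8.19 and 8.27 in RANKL, 7.77 and 7.56 in ENRI, and 8.43 and 8.25 in WENRC. ENRI was lowest, and the rise in WENRC over ENRI was called (0.67, limma FDR 0.0435), while RANKL against ENRI did not pass (0.56, limma FDR 0.0566). The WENRC call was kept in 5 of 10 alternatives and was absent from the authors' deposited table (adjusted p 0.133). It overlaps the DNA repair gene Dclre1c. Setd6, a methyltransferase of non-histone substrates such as RelA, had the highest level per kb of its family (6.63) and a change of -0.00 against ENRI (95% interval -0.39 to 0.38). Family members without a call ranged from -0.15 to 0.58 against ENRI and from -0.27 to 0.58 against WENRC.

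Of the 11 Prdm genes tested, Prdm2 and Prdm12 were called. Prdm2, or RIZ1, an H3K9 methyltransferase, had 11.65 and 11.77 in RANKL, 11.16 and 10.74 in ENRI, and 10.95 and 10.84 in WENRC. RANKL was highest, by 0.76 (limma FDR 0.0338) and 0.81 (limma FDR 0.0400). Prdm12, a zinc finger protein best known from sensory neurons, had 3.51 and 3.30 in RANKL, 3.17 and 3.11 in ENRI, and 4.06 and 4.28 in WENRC. WENRC was highest at this very low level, with a change of 1.03 for WENRC against ENRI (limma FDR 0.0215) and of -0.77 for RANKL against WENRC (limma FDR 0.0479). Near the floor the deposited values are drawn together, so such a change is compressed. Prdm16, a zinc finger regulator expressed in gut epithelium, had the highest level per kb of the family (4.56) and was not called in any comparison. Prdm1, or Blimp1, known for the fetal to adult switch of the intestine, changed by -0.32 against ENRI (limma FDR 0.207).

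Of the 9 acetyltransferases, 1 was called higher in each RANKL comparison, near the shares of 10.4% and 8.53% over all genes tested. Crebbp (CBP), a coactivator that acetylates H3K27 at enhancers, had 12.20 and 12.32 in RANKL, 11.83 and 11.79 in ENRI, and 11.69 and 11.56 in WENRC. The RANKL pair was highest, and the change was 0.64 against WENRC (limma FDR 0.0434) and 0.45 against ENRI (limma FDR 0.0777). Ep300 (p300), its paralogue, had 11.42 and 11.51 in RANKL, 11.17 and 11.04 in ENRI, and 11.03 and 10.80 in WENRC. The order of the cultures was the same as for Crebbp. With all 6 libraries in the fit and no block, neither of its changes passed (0.35 and 0.54, limma FDR 0.147 and 0.0694). Against WENRC it was called with only the 4 libraries compared, with library weights, and with the mouse as a block. The authors' deposited table had it higher there as well (adjusted p 0.000292). Kat2a (GCN5), an H3K9 acetyltransferase of the SAGA and ATAC complexes, was called against ENRI, at 0.81 (limma FDR 0.0421), with 6.88 and 6.92 in RANKL and 6.17 and 6.01 in ENRI. This call was kept in 5 of 9 alternatives and was absent from the authors' deposited table (adjusted p 0.0688). Kat5 (Tip60) and Kat8 (MOF), which act on H4, had the highest levels per kb of the family (5.83 each), and changes of 0.31 and 0.26 against ENRI that did not pass.

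The class I deacetylases Hdac1 and Hdac2, the catalytic subunits of the NuRD, Sin3 and CoREST complexes, were called higher in RANKL than in ENRI. Hdac1 had 10.04 and 10.03 in RANKL, 9.24 and 8.72 in ENRI, and 9.33 and 9.58 in WENRC. Hdac2 had 9.21 and 9.20 in RANKL, 8.35 and 7.75 in ENRI, and 8.77 and 8.94 in WENRC. For both genes ENRI was lowest, with WENRC between, and the changes from ENRI were 1.05 (limma FDR 0.0202) and 1.16 (limma FDR 0.0187). Against WENRC they were 0.58 and 0.35 and did not pass (limma FDR 0.127 and 0.343), but Hdac1 was called with only the 4 libraries compared, with library weights and in the authors' deposited table (adjusted p 0.0028). Hdac5, a class IIa deacetylase that moves between cytoplasm and nucleus, was called against WENRC. It had 9.42 and 9.55 in RANKL, 8.79 and 9.37 in ENRI, and 8.51 and 8.26 in WENRC, a change of 1.10 (limma FDR 0.0308), with ENRI 2 close to the RANKL values. Hdac7 and Hdac9, of the same class, differed most between replicates: ENRI gave 8.82 and 6.15 for Hdac7 and 6.18 and 7.92 for Hdac9. The neighbour Slc48a1, which overlaps Hdac7 at its end, split the same way (7.36 and 5.39 in ENRI). Hdac11, the class IV enzyme, had the highest level per kb of the deacetylases (5.18) and changed by -0.09 against ENRI (95% interval -0.44 to 0.27).

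Sirt7 had the largest fall of all members. It is a nuclear, NAD-dependent deacetylase of acetylated H3K18 that is enriched in the nucleolus. Sirt7 (NM_153056, mm9 chr11:120479686-120486316, minus strand) had 8.06 and 8.27 in RANKL, 9.41 and 10.19 in ENRI, and 8.32 and 7.99 in WENRC. ENRI was high in both mice, and RANKL and WENRC overlapped. The change was -1.63 for RANKL against ENRI (3.11-fold, SE 0.28, limma FDR 0.0145) and -1.64 for WENRC against ENRI (SE 0.28, limma FDR 0.0202). RANKL and WENRC differed by 0.01 (95% interval -0.68 to 0.70).

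The gene just downstream of Sirt7 on the same strand moved with it. Pcyt2, an enzyme of phosphatidylethanolamine synthesis (mm9 chr11:120471376-120479259), had 9.50 and 9.54 in RANKL, 10.48 and 11.32 in ENRI, and 9.54 and 9.02 in WENRC. Its changes of -1.38 for RANKL against ENRI (limma FDR 0.0285) and -1.62 for WENRC against ENRI (limma FDR 0.0248) had the order of cultures seen for Sirt7. Upstream, Mafg had 8.39 and 8.36 in RANKL and 8.38 and 8.20 in ENRI (change 0.09, limma FDR 0.707). Whether polymerase running on from one gene reached the other was not tested. The 6 other sirtuins changed by -0.07 to 0.36 against ENRI and by -0.13 to 0.19 against WENRC, and none was called; Sirt1, the best studied of them, had 9.36 and 9.29 in RANKL, 9.38 and 9.34 in ENRI, and 9.45 and 9.46 in WENRC.

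Of the 5 DNA methyltransferase genes, 3 were called higher in RANKL than in ENRI, and limma called 0 against WENRC (2 at an unadjusted p under 0.05). Dnmt1, the maintenance enzyme that copies methylation after replication, had 9.70 and 9.79 in RANKL, 9.16 and 8.67 in ENRI, and 10.13 and 9.89 in WENRC. WENRC was highest and ENRI lowest with no overlap, and the changes from ENRI were 1.10 in WENRC (limma FDR 0.0224) and 0.83 in RANKL (limma FDR 0.0339). Uhrf1, its partner at hemimethylated DNA, had 8.51 and 8.86 in RANKL, 7.99 and 7.63 in ENRI, and 9.26 and 9.08 in WENRC, the same order. Dnmt3a, a de novo methyltransferase, had 11.01 and 10.97 in RANKL, 10.28 in both ENRI libraries, and 10.56 and 10.52 in WENRC. Its rise in RANKL was 0.71 against ENRI (limma FDR 0.0143) and 0.45 against WENRC (limma FDR 0.0662). The antisense Dnmt3aos lies inside it, and its values of 4.95 and 4.66 in RANKL and 4.50 and 4.23 in ENRI cannot be separated from those of Dnmt3a without strand.

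Dnmt3l, the catalytically inactive partner of the de novo enzymes, was called against ENRI at a low level: 4.47 and 4.93 in RANKL, 3.72 and 3.78 in ENRI, and 3.90 and 4.03 in WENRC (change 0.95, limma FDR 0.0297). On the opposite strand its 5′ part overlaps Aire, the autoimmune regulator, which had 5.12 and 5.41 in RANKL, 3.48 and 4.02 in ENRI, and 3.65 and 3.76 in WENRC. Aire itself was called in both comparisons (1.52 and 1.56, limma FDR 0.0124 and 0.0150), and since strand handling is not given in the sources used here, the reads of the 2 genes cannot be told apart. With all 6 libraries in the fit, limma called 0 of the 3 Tet genes in any comparison; at an unadjusted p under 0.05 there were 0 in the RANKL comparisons and 1 in WENRC against ENRI. With only the 4 libraries compared, or with library weights, Tet1 and Tet3 were called against WENRC, higher in RANKL, and the authors' deposited table had Tet3 higher there (adjusted p 0.00647). Tet1 was called higher in both RANKL comparisons with the mouse of ENRI and WENRC as a block. Tet3, the one of highest level per kb (5.15), had 11.74 and 11.91 in RANKL, 11.72 and 12.07 in ENRI, and 11.52 and 11.26 in WENRC. Tet2 had 9.59 and 9.74 in RANKL, 9.87 and 9.96 in ENRI, and 10.14 and 9.90 in WENRC, lowest in RANKL by -0.25 and -0.35 (limma FDR 0.264 and 0.175).

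Levels are compared between genes only per kb of gene, as means of the 6 libraries on the log2 scale. Kdm6b (6.68), Setd6 (6.63), Sirt7 (5.98), Kmt2d, Kat5 and Kat8 (5.83 each) were the highest. Hdac9 (-2.94) and Prdm6 (-2.93) were among the lowest, and Prdm14 (-2.1) and Prdm8 (-2.04) were low as well. Kdm2b, with 3.12, was not among the highest by this measure.

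**Figure D3:**
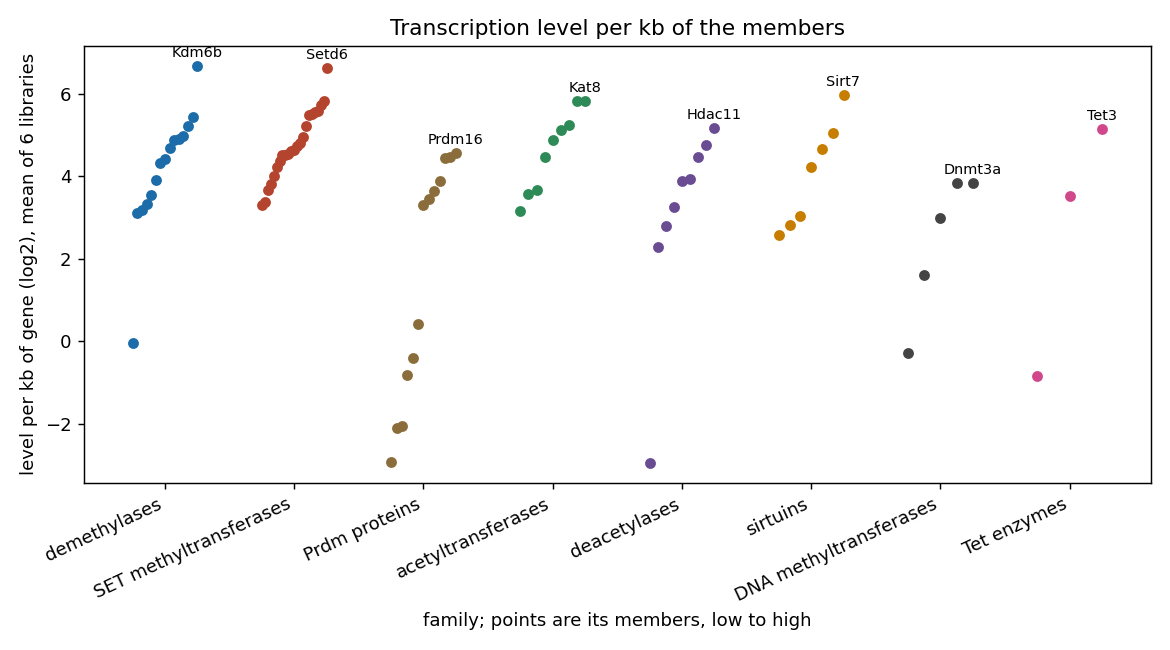
Transcription level per kb of gene (y axis, log2, mean of the 6 libraries) of the genes by family (x axis), 1 of them not shown, each point a gene and the highest of each family named. Most genes sit between 2 and 6, with Kdm6b at 6.68 on top and several Prdm genes below 0.

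Deposited H3K27me3 regions lay near few of these genes. Regions higher in RANKL had their centre within 5 kb of a start for 9 of the 85 (10.6%), against 17.9% of 23354 listed genes, and regions higher in WENRC for 2 (2.35%), against 5.3%. Within 1 kb there were 4 and 1 (9.97% and 1.22% of listed genes), within 50 kb 21 and 15 (28.5% and 17.7%), and at an authors' fold of at least 4 there were 3 and 0 (2.88% and 1.37%). The 9 included Crebbp, Dnmt3b, Hdac7, Kmt2a, Prdm6, Prdm11, Prdm12 and Tet2, and the 2 were Kdm2b and Dnmt3l. Tet2, a dioxygenase that oxidizes 5-methylcytosine, had the largest fold: its region (mm9 chr3:133207701-133208201, centre 597 bases upstream of the start) had 25 tags in pooled RANKL and 2.7 scaled tags in WENRC, a fold of 9.26 by the authors. Hdac7 had 3 regions, the strongest (chr15:97660900-97661982, in intron 1 of NM_001204276) with 68 tags against 11.7, a fold of 5.81. At Crebbp, 2884 bases upstream, 24 tags stood against 5.4 (fold 4.44), although Crebbp was transcribed at a higher level in RANKL. Prdm12, which fell in RANKL, had 50 tags against 24.3 in intron 3 (fold 2.06). The region at Dnmt3l, higher in WENRC, had 28.8 scaled tags against 12 (fold 2.4). Of the 11 genes with a region, 4 were called in RANKL against WENRC with all 6 libraries in the fit. These were Crebbp and Kmt2a, higher with more mark, Prdm12, lower with more mark, and Kdm2b, higher with less mark. The authors' deposited table also had Hdac7 lower with more mark (-0.76, adjusted p 0.0335) and Dnmt3l higher with less mark (2.09, adjusted p 0.0436). Both were called with only the 4 libraries compared as well.

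Tet2 is printed as the start with the largest fold of the mark among these genes (RefSeq, GRCm38.p6 chr3:133544341-133544640, minus strand, 57 CpG in capitals).
Tet2: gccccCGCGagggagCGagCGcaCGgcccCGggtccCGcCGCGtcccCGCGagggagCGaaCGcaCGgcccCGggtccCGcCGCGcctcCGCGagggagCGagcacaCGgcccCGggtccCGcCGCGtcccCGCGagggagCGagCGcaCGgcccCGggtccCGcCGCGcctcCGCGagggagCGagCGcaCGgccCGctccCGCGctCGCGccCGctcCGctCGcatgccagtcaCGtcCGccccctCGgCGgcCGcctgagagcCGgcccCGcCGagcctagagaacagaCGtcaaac

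**Figure D4:**
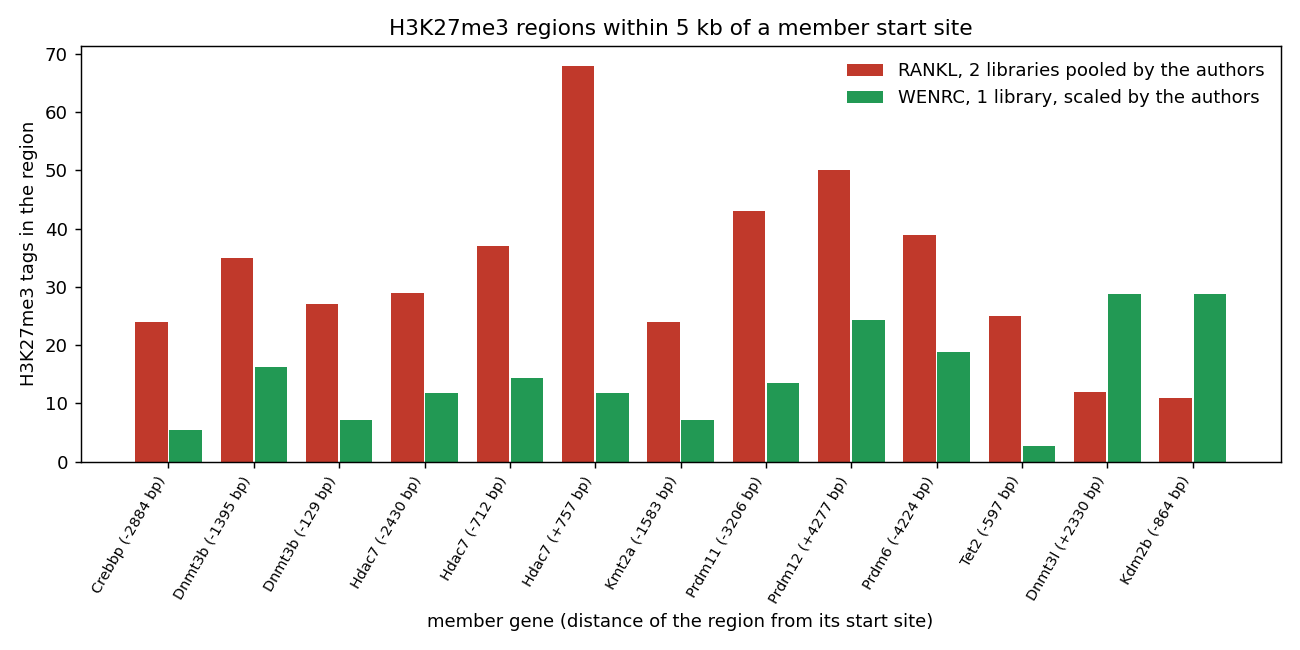
H3K27me3 tags (y axis) in pooled RANKL and in WENRC, scaled by the authors, for the deposited regions, 1 of them not shown, with their centre within 5 kb of a start of one of these genes (x axis, with the distance from the start in bp). Tet2 has 25 tags against 2.7 and the strongest Hdac7 region 68 against 11.7, and only the regions of Dnmt3l and Kdm2b at the right are higher in WENRC.

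RefSeq promoter windows were found for 67 of the 85 genes (98 windows on GRCm38.p6), and Kdm6b, Kdm2a, Hdac1 and Kmt2b were among the 18 without one. The windows of these genes held a median of 22 CpG dinucleotides in 300 bases, against 7 over all 32851 windows.

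Many of these enzymes work in complexes whose other subunits carry other names. A list of 86 genes was tested. It held such subunits, readers of histone marks, DNA methylation partners, and histone-modifying enzymes with other names. In RANKL against ENRI 23 were called higher and 0 lower, where 10.4% and 10.5% of all genes tested were, with a median change of 0.37. An unadjusted limma p under 0.05 was found for 42 of them, and for 6061 of all 16563 genes tested. Against WENRC 14 were called higher and 1 lower (8.53% and 3.62% over all genes), with a median of 0.21. In WENRC against ENRI 6 were called higher, near the 4.85% over all genes, and 1 lower (9.74%), with a median of 0.10. Readers of histone marks held the highest share: 7 of 10 rose against ENRI and 4 of 10 against WENRC, among them Brd3 (0.97 and 1.16, limma FDR 0.0117 and 0.00919), a bromodomain protein that binds acetylated histones, and Brd9 (1.24 and 1.05, limma FDR 0.00592 and 0.0126), a subunit of a BAF complex. The heterochromatin proteins Cbx3 (1.31, limma FDR 0.0116) and Cbx1 (1.26, limma FDR 0.00890) were called against ENRI.

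Of the corepressors of the deacetylases, 5 of 18 were called higher against ENRI and 4 of 18 against WENRC, where 10.4% and 8.53% of all genes tested were. Chd4, the remodelling ATPase of NuRD, rose by 0.94 and 0.92 (limma FDR 0.00999 and 0.0140). Of the 13 subunits of MLL and COMPASS complexes only Cxxc1 (0.83, limma FDR 0.0211) and Paxip1 (0.96, limma FDR 0.0164) were called against ENRI. This is near the share of 10.4% over all genes tested. Against WENRC 0 were called, and 1 had an unadjusted limma p under 0.05. Among methyltransferases with other names, the H3K27 methyltransferase Ezh1 was called in both comparisons (0.79 and 0.82, limma FDR 0.0194 and 0.0238), and its paralogue Ezh2 against ENRI only (0.78, limma FDR 0.0481; 0.06 against WENRC). In WENRC against ENRI the largest rises were Uhrf1 (1.36, limma FDR 0.0146) and the methyltransferase Smyd2 (1.18, limma FDR 0.0425).

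Between WENRC and ENRI, libraries of the same mouse could be compared, as matched by number. Of the 82 tested members, 62 (75.6%) changed in the same direction in both mice, against 74.5% of all genes tested. Among the called genes, WENRC minus ENRI was 0.98 in mouse 1 and 1.22 in mouse 2 for Dnmt1, 0.66 and 0.69 for Suv39h2, and 0.89 and 1.17 for Prdm12. It was -1.09 and -2.20 for Sirt7 and -0.70 and -0.90 for Kdm7a. These 5 genes were called from the same libraries, so their shared direction in both mice is no separate check of the calls. Fitted on the 4 libraries of these cultures alone, limma called 0 members (12 at an unadjusted p under 0.05), where all genes had 0.0%, and the authors' deposited table had 2 higher and 2 lower (3.3% and 9.24%).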

How the data were processed

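GRO-seq and H3K27me3 ChIP-seq reads were processed by the authors with Bowtie2 (version 2.3.4.1), HOMER and DESeq2 on mm9, per the submitters' processing notes. Per the file headers, GRO-seq reads were summed over RefSeq genes with HOMER, and the deposited values are normalized log2 values, in shape a regularized logarithm that draws low genes together. Strand handling is not given in the sources used here, and GRO-seq depth is unknown. The deposited table also gives the authors' log2 fold changes with p-values, which were turned here to first-named minus second-named. H3K27me3 regions were called by the authors with HOMER in one culture against the other, per the file headers: deposited RANKL tags are counts of 2 pooled libraries, WENRC tags are a signal scaled by 0.9, and the deposited fold is a ratio of tags.

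Limma (version 3.58.1, R 4.3.3) with a variance trend was run on the 6 libraries as 3 group means, for the 16563 genes with at least 2 libraries at or above log2 of 10, with two-sided p-values adjusted by the Benjamini-Hochberg method. The fit was tested on simulated data in which a gene had the same spread in all cultures. That simulation could not show how the unequal spreads of these cultures act on the calls. ENRI and WENRC libraries of one number share a mouse by their titles, matched to columns by number, and their deviations correlated over genes with r = 0.414. The RANKL titles name no mouse, and by number RANKL gave r = -0.205 with ENRI and -0.323 with WENRC. The fit had no block. One with the mouse as a block for ENRI and WENRC, which left RANKL unpaired, was an alternative. Other alternatives changed the libraries, filter, scaling, variance model, weights and tool, left out overlapping members or each library in turn, and varied distance and fold of the regions. A fit of the 4 ENRI and WENRC libraries with the mouse as a block was added after seeing the data. Called members, Kdm6b, the top 2 of each family per kb, members with a region and the largest called partner changes are named. Prdm1, Kmt2c, Ehmt1, Setdb1, Ep300, Sirt1, Ezh1, Ezh2, Cxxc1, Paxip1, Hdac9 and genes beside a member were named after their values were seen. The members and lists were chosen with earlier results of these data known. Values of 1 member and 1 partner gene are not reported here. In these libraries 23 members overlap another listed gene.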

Additional observations from a re-analysis of the deposited data

How the results depend on the processing

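No called member changed direction under any alternative. Of the calls in RANKL against ENRI, 11 of 21 were kept under all 9 alternatives that left out no library, of those in RANKL against WENRC 2 of 16 (Kdm2b and Hdac5), and of those in WENRC against ENRI 0 of 5 under 10 alternatives. With only the 4 libraries compared, the counts of members called higher and lower in RANKL were 9 and 2 against ENRI and 30 and 2 against WENRC, and 0 and 0 for WENRC against ENRI (12 at an unadjusted limma p under 0.05). With overlapping members left out they were 11 and 0 for RANKL against ENRI and 1 and 0 for WENRC against ENRI.

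For RANKL against WENRC, 15 higher and 1 lower became 8 and 0 with no filter on low values and 15 and 0 with the filter at log2 of 50. They became 14 and 0 with upper-quartile recentring, 6 and 3 with quantile normalization, 5 and 1 without the variance trend, and 29 and 1 with library weights. The authors' deposited table had 30 and 2 (16.7% and 11.1% over all genes tested). Shares over all genes are not given for the other settings of this paragraph, nor for the fits that left out a library. Shifts in those counts can therefore not be read as particular to the members. Upper-quartile recentring moved the median of all genes to -0.12 and that of the members to 0.14. For WENRC against ENRI, 3 higher and 2 lower became 6 and 2 with upper-quartile recentring, 8 and 2 with quantile normalization, 1 and 2 with library weights and 2 and 4 with the filter at log2 of 50.

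Leaving out each library in turn gave 0 to 31 higher and 0 to 4 lower for RANKL against ENRI, 0 to 29 and 0 to 2 for RANKL against WENRC, and 0 to 12 and 0 to 10 for WENRC against ENRI. In these fits an arm with 1 library is assumed to vary like the others. The highest counts came without ENRI 1 (for RANKL against WENRC, without either ENRI library), and the lowest without a RANKL library, or for WENRC against ENRI also without either WENRC library. For RANKL against WENRC, leaving out WENRC 1 or WENRC 2 left 1 call (Kdm2b), and for RANKL against ENRI it left 9 higher and 2 lower.

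A replicate block by mouse paired ENRI with WENRC and left RANKL unpaired. Its counts were 23 higher and 2 lower for RANKL against ENRI, and 18 and 1 for RANKL against WENRC. For WENRC against ENRI they were 5 and 4, where Hdac2 and Kdm2b rose and Kat6b and Prdm1 fell in addition. The block with only the 4 libraries compared gave 0 and 0 for WENRC against ENRI (9 at an unadjusted limma p under 0.05). The block ended no call made without it.

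H3K27me3 regions higher in RANKL lay near 4 members within 1 kb, 21 within 50 kb and 3 at an authors' fold of at least 4, and regions higher in WENRC near 1, 15 and 0. The cause of these shifts was not tested. GRO-seq depth is unknown.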

Other observations

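Several of the called enzymes share a CXXC domain, a zinc finger that binds unmethylated CpG. Of the 7 members with such a domain in the family (Kdm2a, Kdm2b, Kmt2a, Kmt2b, Dnmt1, Tet1 and Tet3), 5 were called higher in RANKL than in ENRI, 4 higher in RANKL than in WENRC, and 1 higher in WENRC than in ENRI, where 10.4%, 8.53% and 4.85% of all genes tested were. Their median changes were 0.71, 0.76 and 0.12. With all 6 libraries in the fit Tet1 and Tet3 were not called, with changes of 0.62 and -0.07 against ENRI and 0.76 and 0.44 against WENRC. This grouping was chosen after the values were seen, and no test was made of it.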
